A study of Mus musculus with 6 samples.

Results

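The mouse miR-34 and miR-449 arms were followed here among the small RNAs bound to the RNA-induced silencing complex (R-sRNAs) of mouse brain. The members were 6 mature miRNA names, mmu-miR-34a-5p, mmu-miR-34b-5p, mmu-miR-34c-5p, mmu-miR-34b-3p, mmu-miR-34c-3p and mmu-miR-449a-5p (written without the species prefix below), and every sequence that the table assigned to one of these names was taken as theirs. They were 6 of the 782 miRNA names with a read, and they covered 163 of the 21771 miRNA sequences listed, 141 of them with a read in at least 1 sample. Argonaute proteins were pulled down from brain lysate with a GW182 peptide, and the bound RNA was sequenced as small RNA libraries (Ago-RP-Seq). The libraries came from 3 wild type (WT) brain samples and from 3 samples of transgenic (Tau tg) mice that express a fragment of human tau from the neuronal Thy1.2 promoter, all males of 3 months on a C57BL/6 J background. The labels name the source as hippocampus in abbreviated form, while the protocol describes cortex and hippocampus combined. They do not say whether mice were pooled, so p-values measure the spread between these samples.

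A miRNA guides an Argonaute protein to messenger RNAs that pair with its seed, the bases that follow its first base. The 6mer seed viability is the viability left in cultured cells after transfection of an siRNA that carries the seed in a neutral backbone, here the mean over 3 murine cell lines, and a seed with low viability is called toxic. The miR-34 genes are textbook targets of p53, the transcription factor that responds to DNA damage. miR-34a restrains the cell cycle and survival genes and is found in neurons, whereas the miR-34b/c cluster and the miR-449 cluster are best known from ciliated epithelia, which in the brain line the ventricles and the choroid plexus.

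The mature sequences are shown because their seeds set the 6mer seed viability that each arm carries. They were taken from RefSeq (GRCm38.p6), which matched 5 of the 6 members, with bases 2 to 8 in capitals. The 5p arms came first.
miR-34a-5p: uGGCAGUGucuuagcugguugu
miR-34b-5p: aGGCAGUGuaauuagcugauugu
miR-449a-5p: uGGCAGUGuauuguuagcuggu
The 3p arms carried another seed.
miR-34b-3p: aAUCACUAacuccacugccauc
miR-34c-3p: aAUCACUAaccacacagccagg
miR-34c-5p had no mature entry. In the table its main 6mer seed was GGCAGU, as in the other 5p arms. The seed GGCAGU had a viability of 25.1%, and 417 of the 4088 seeds in the table (10.2%) had a lower one. The seed AUCACU of both 3p arms had a viability of 69.9%. miR-34a-5p and miR-449a-5p shared their first 9 bases, and the 3p arms shared their first 10.

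The 4 hairpins lie at 3 loci of GRCm38. Mir34a is at chr4:150068454-150068555 on the plus strand, where its end overlaps an exon of the unnamed transcript Gm37795. Mir34b, at chr9:51103562-51103645, and Mir34c, at chr9:51103034-51103110, are both on the minus strand, 451 nt apart, inside an intron of Btg4 on the opposite strand. Mir449a is at chr13:113037534-113037624 on the plus strand, in an intron of Cdc20b, a gene of multiciliated cells.

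The libraries held 998248 to 6879551 reads, so that 1 read was worth 0.142 to 0.917 RPM (reads per 1000000), and 82.7% to 92.4% of the RPM was assigned to a miRNA. The neuronal miR-124-3p was the most abundant miRNA. In bulk tissue, a change in the share of a cell type and a change in RNA per cell cannot be told apart.

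miR-34a-5p was the most abundant member, ranking 76 of the miRNAs by mean level. It stood at 961, 1206 and 1624 RPM in the 3 WT samples and at 904, 2864 and 1752 RPM in Tau tg samples 1 to 3. Both the lowest and the highest value belonged to Tau tg samples, so the groups overlapped. miR-34c-5p ranked 100 and stood at 726, 371 and 608 RPM in the WT libraries, against 2708, 266 and 1543 RPM in the Tau tg libraries. Its highest and lowest samples were again Tau tg 1 and Tau tg 2, but in the reverse order to miR-34a-5p. miR-34b-5p, from the same cluster as miR-34c-5p, stood at 267, 545 and 512 RPM in the WT libraries, against 655, 442 and 690 RPM in the Tau tg libraries.

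**Figure D1:**
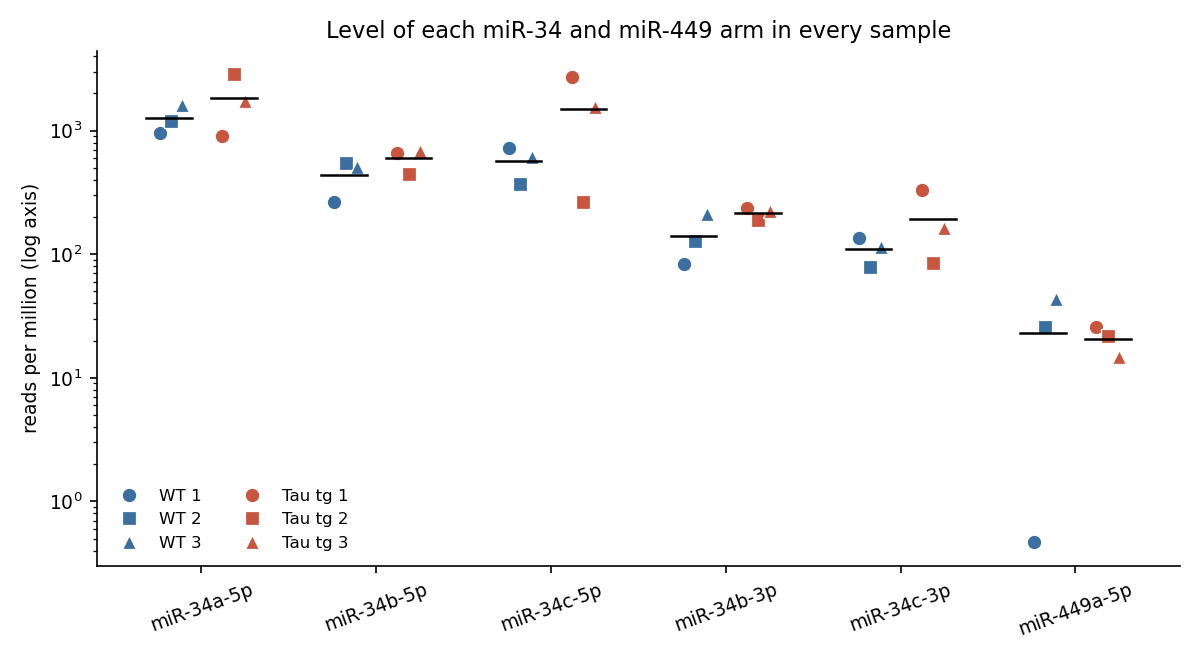
RPM on a log axis for each arm, with a point for each of the 6 samples (shape, sample number) and a line at the mean of each group. miR-34a-5p and miR-34c-5p are spread apart in the Tau tg group, from 904 to 2864 RPM and from 266 to 2708 RPM, and every arm has overlapping groups.

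The 3p arms, which are mostly discarded when a hairpin is cut into a guide and a passenger, were less abundant. miR-34b-3p stood at 83.4, 127 and 210 RPM in the WT libraries, against 235, 189 and 222 RPM in the Tau tg libraries, with only Tau tg 2 inside the WT range. miR-34c-3p stood at 135, 79.3 and 115 RPM in the WT libraries, against 332, 85.3 and 163 RPM in the Tau tg libraries, high in the same Tau tg samples as its 5p partner. The 5p arm of Mir34b outnumbered its 3p arm 2.34 to 4.30 times, and that of Mir34c 3.12 to 9.48 times. miR-449a-5p, the sole miR-449 name with a read, was the rarest member. It stood at 0.468 RPM (1 read), 25.8 and 43.1 RPM in the WT libraries, against 25.6, 21.7 and 14.7 RPM in the Tau tg libraries.

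Each read is a whole arm, so levels needed no correction for length, although arms can ligate unequally. By mean level the order was miR-34a-5p, miR-34c-5p, miR-34b-5p, miR-34b-3p, miR-34c-3p and miR-449a-5p. It did not hold in every library. miR-34c-5p exceeded miR-34a-5p in Tau tg 1 (2.99 times) and was 0.0929 times miR-34a-5p in Tau tg 2. miR-34b-5p exceeded miR-34c-5p in WT 2 and Tau tg 2, and the 3p arms changed places between libraries. The neighbours in this order therefore did not differ beyond their spread, except that miR-34b-5p lay above miR-34b-3p, and miR-34c-3p above miR-449a-5p, in 6 of 6 samples.

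The comparison of Tau tg with WT asked which RISC-bound miRNAs differ with the tau transgene. In a limma fit of log2(RPM + 1) (pseudocount 1) over all 689 miRNAs with a mean of at least 1 RPM, 0 miRNAs (0%) had a Benjamini-Hochberg adjusted p under 0.05, and 25 (3.63%) had an unadjusted p under 0.05, of which 14 (2.03% of those tested) were higher in Tau tg. DESeq2 on the reads recovered from the RPM gave 5 at an adjusted p under 0.05, none of them a member. None of the 6 members had an unadjusted p under 0.05. All 6 log2 differences were positive, as were 63.6% of all miRNAs, with a median of 0.67 over the members and 0.25 over all miRNAs.

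For miR-34a-5p the log2 difference was 0.42 ± 0.40 (SE), with a 95% interval from -0.42 to 1.27 (limma adjusted p = 0.896). Leaving out Tau tg 2 gave 0.03, and leaving out Tau tg 1 gave 0.86. miR-34b-5p had 0.47 ± 0.39, with an interval from -0.35 to 1.30, and 0.15 without WT 1. These intervals hold no change as well as a doubling of the level. miR-34c-5p had the largest value, 0.92 ± 0.61, with an interval from -0.38 to 2.22 (limma adjusted p = 0.896). Its size rested on single libraries in both directions, since the value was 1.90 without Tau tg 2 (limma adjusted p = 0.683), 0.23 without Tau tg 1 and 0.63 without Tau tg 3. miR-34b-3p had 0.71 ± 0.47, which became 0.09 when only reads with its main seed were counted. miR-34c-3p had 0.63 ± 0.55, and 0.14 without Tau tg 1 or 1.11 without Tau tg 2. For miR-449a-5p the value of 0.82 ± 1.21 rested on the single read of WT 1 and became -0.70 without that sample. Its mean RPM was 23.1 ± 21.4 in WT and 20.7 ± 5.52 in Tau tg (SD, n = 3).

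**Figure D2:**
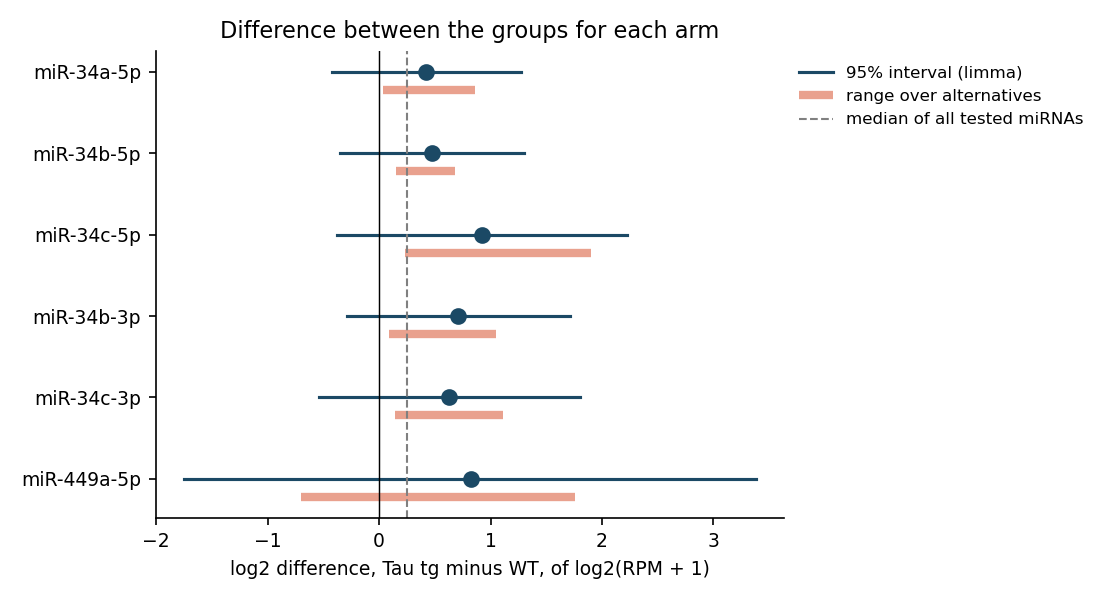
Log2 difference between Tau tg and WT for each arm (points), with its 95% limma interval (thin lines) and the range over the alternative settings and left-out samples (thick lines). The dashed line is the median of all tested miRNAs, 0.25. All 6 intervals include 0, and that of miR-449a-5p, from -1.75 to 3.38, is the widest.

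Added up, the arms lay higher in every Tau tg library than in any WT library, which no single arm did. The 6 arms together made up 2173, 2353 and 3112 RPM in the WT libraries, against 4859, 3868 and 4385 RPM in the Tau tg libraries, that is 2546 ± 498 and 4371 ± 496 RPM (SD, n = 3). The groups did not overlap, and the Tau tg mean was 1.72 times the WT mean. The sum took 0.250%, 0.302% and 0.411% of all miRNA reads in WT and 0.537%, 0.457% and 0.526% in Tau tg. Since the sum was formed after the values of its arms were seen, it was not tested itself. Its reads with the seed GGCAGU enter a fit over all seeds, given below, under the same limit. For single miRNAs above 0 in all samples, 45 of 472 (9.53%) had groups that did not overlap, and none of the 6 members was among them. This share is not a background for sums of 6 names, which was not formed.

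The composition of the sum differed between samples. miR-34a-5p supplied 44.2%, 51.3% and 52.2% of it in WT, and 18.6%, 74.0% and 40.0% in Tau tg. miR-34c-5p supplied 33.4%, 15.8% and 19.5% in WT and 55.7%, 6.88% and 35.2% in Tau tg. In Tau tg 1 miR-34a-5p was low and miR-34c-5p high, and in Tau tg 2 the reverse held. In Tau tg 3 both lay above every WT sample, at 1752 and 1543 RPM. In alternatives chosen after seeing the data, the sum without miR-34a-5p (WT 1147 to 1488 RPM, Tau tg 1004 to 3955 RPM) and the sum without miR-34c-5p (WT 1447 to 2503 RPM, Tau tg 2151 to 3602 RPM) overlapped between the groups. So did the sum of the miR-34b and miR-34c arms, at 983 RPM in Tau tg 2. Without any of the 4 other members in turn, and under median-of-ratios scaling (2077 to 3648 and 3845 to 4347), quantile normalization and scaling to the miRNA total, the groups stayed apart.

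**Figure D3:**
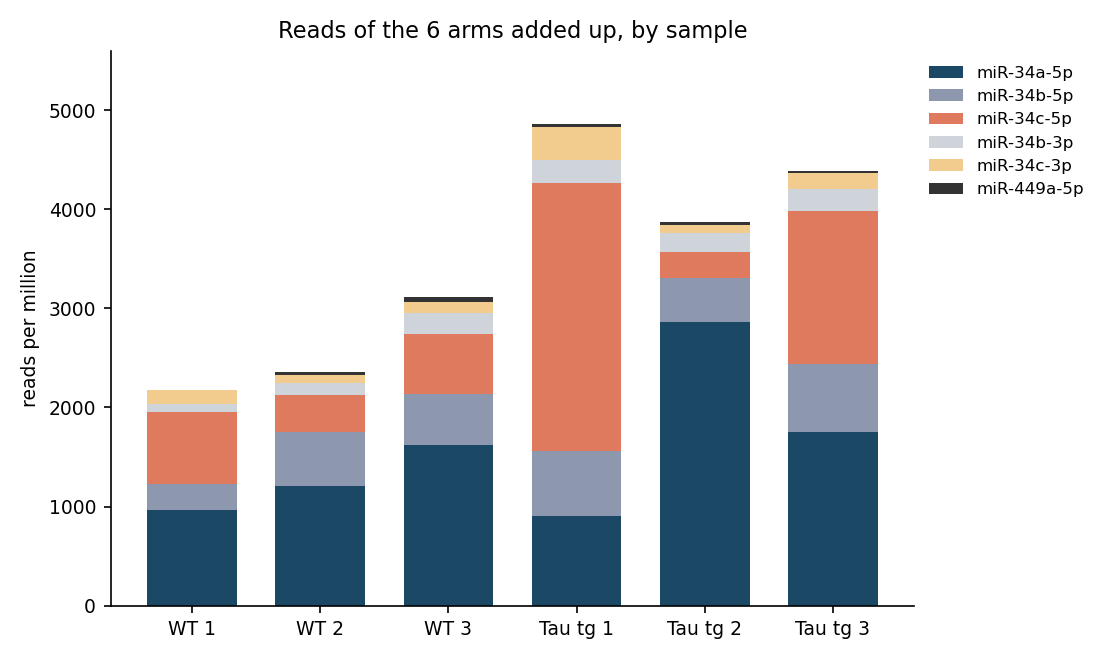
Stacked bars of RPM for the 6 arms in each sample. The Tau tg bars, at 3868 to 4859 RPM, stand above the WT bars, at 2173 to 3112 RPM, while the segments of miR-34a-5p and miR-34c-5p trade places between Tau tg 1 and Tau tg 2.

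The log2 ratio of miR-34c-5p to miR-34a-5p was -0.41, -1.70 and -1.42 in WT and 1.58, -3.42 and -0.18 in Tau tg. Its group difference was 0.50 (exact two-sided permutation test, p = 0.800, adjusted over 4 measures 0.800), where 3 against 3 samples cannot give a p below 0.1. Within Tau tg the range was wider for some members and narrower for others. The coefficient of variation of miR-34c-5p was 31.8% in WT and 81.1% in Tau tg, and 98.9% of the 276 miRNAs with a mean of at least 100 RPM had a lower one in Tau tg. For miR-34a-5p it was 26.5% and 53.4%, against a median of 25.2% for these miRNAs in Tau tg, and for miR-34c-3p it was 25.8% and 65.2%. It was lower in Tau tg for miR-34b-5p (34.4% and 22.5%), miR-34b-3p (46.0% and 11.0%) and miR-449a-5p (92.8% and 26.7%). Depth ran partly along with miR-34c-5p. The deepest libraries, Tau tg 1 with 6879551 and Tau tg 3 with 2358928 reads, had its highest levels. WT 1, with 2050054 reads, WT 2, with 1387001, and Tau tg 2, with 1152568, followed in order of depth, at 726, 371 and 266 RPM. Only WT 3, the shallowest at 998248 reads, stood outside this order, at 608 RPM. The part of depth in these levels was not tested.

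Among the toxic seeds of the R-sRNAs, the members held a small share. Of all reads with a seed viability under 50%, the limit used for toxic seeds here, they made up 0.856%, 0.907% and 1.17% in WT and 1.69%, 1.44% and 1.60% in Tau tg. Of the reads whose seed was at least as toxic as GGCAGU, they made up 5.18%, 5.07% and 7.51% in WT and 10.5%, 9.29% and 8.78% in Tau tg. Neither share overlapped between the groups. Among the miRNA reads with such seeds, the members made up 7.11%, 8.31% and 13.9% in WT and 12.9%, 15.4% and 13.3% in Tau tg. That share overlapped between the groups. All of these shares were formed from the members' summed reads and were not tested. The total of all reads with such seeds also overlapped, at 35427 to 41539 RPM in the WT libraries, against 36892 to 42723 RPM in the Tau tg libraries. Within this range of seeds miR-22-3p was the most abundant miRNA, with a mean of 9784 RPM. miR-34a-5p came next with 1497 RPM and miR-34c-5p was the fifth with 1027 RPM. The mean viability of the members' reads lay between 29.5% and 31.9% in the 6 samples.

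The reads of an arm differ at their ends, and a shifted start gives the arm another seed. Over the 276 miRNAs with a mean of at least 100 RPM, the main seed held a median of 95.8% of the reads. miR-34c-5p, at 99.0%, and miR-34a-5p, at 96.5%, were uniform, and miR-34b-5p, miR-34c-3p and miR-34b-3p, at 83.8%, 83.8% and 70.1%, were mixed. The most abundant shifted reads of both miR-34b arms are shown, with bases 2 to 8 in capitals, because their seeds differ from the main ones.
miR-34b-3p, 1 nt downstream: aUCACUAAcuccacugccauc
miR-34b-5p, 1 nt upstream: uAGGCAGUguaauuagcugauu
The shifted miR-34b-3p read had the seed UCACUA, with a viability of 79.9%. The shifted miR-34b-5p read had the seed AGGCAG, with 44.4%. Both shifts thus moved the arm to a less toxic seed.

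The start of miR-34b-3p varied between libraries. Reads that began 1 nt downstream made up 0%, 22.5% and 8.30% of it in WT and 24.6%, 62.8% and 29.8% in Tau tg. The 0% of WT 1 was 0 of 178 reads, which allows a share of up to 1.69%. The Wilson 95% interval was 17.1% to 29.0% in WT 2 and 22.6% to 26.8% in Tau tg 1, so the nearest samples of the groups lay within counting error. Its main seed took 89.3%, 77.5% and 91.3% of the reads in WT and 71.1%, 36.7% and 65.9% in Tau tg, without overlap. The same share did not overlap for 32 of the 276 miRNAs (11.6%), and of the 5 members among them for this one, so no difference particular to it is shown. In Tau tg 2, most of the miR-34b-3p reads were shifted.

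The most abundant shifted miR-34b-3p read itself stood at 0, 27.8 and 0 RPM in the WT libraries, against 28.5, 81.1 and 37.2 RPM in the Tau tg libraries. Its log2 difference was 3.88 ± 0.96, with the lowest adjusted p of all the members' sequences (limma adjusted p = 0.0901). Since 2 WT samples had no read of it, this value depends on the pseudocount of 1 and was 6.08 with a pseudocount of 0.1 (limma adjusted p = 0.0112). edgeR on the recovered reads gave 2.28 (adjusted p = 0.277). Over all alternatives its adjusted p ran from 0.00244 to 0.717.

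Across all 36070 sequences tested, 803 (2.23%) had an unadjusted p under 0.05, 519 of them (1.44% of those tested) higher in Tau tg, and 10 (0.0277%) had an adjusted p under 0.05. Of the members' 141 sequences, 86 passed the minimum of a mean of 1 RPM, and 12 of these had an unadjusted p under 0.05, all higher in Tau tg. A sequence absent from WT could pass the minimum only through Tau tg, so this count does not stand for the 141. None had an adjusted p under 0.05. The 23 nt read that was the most abundant of miR-34c-5p stood at 457, 249 and 314 RPM in the WT libraries, against 1945, 255 and 1005 RPM in the Tau tg libraries, with a log2 difference of 1.27 ± 0.50 (limma adjusted p = 0.584). This was 0.62 without Tau tg 1, 2.08 without Tau tg 2 and 1.74 by edgeR (adjusted p = 0.102). Its 22 nt read, next in level, stood at 96.0, 59.0 and 204 RPM in the WT libraries, against 383, 2.51 and 174 RPM in the Tau tg libraries, and was nearly absent from Tau tg 2. A 21 nt read of miR-34b-5p stood at 0.468, 0.678 and 23.9 RPM in the WT libraries, against 67.7, 25.9 and 37.6 RPM in the Tau tg libraries, with 3.40 ± 0.94 (limma adjusted p = 0.273). Without WT 3 it was 4.73 (limma adjusted p = 0.0249), and edgeR gave 2.49 (adjusted p = 0.277).

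**Figure D4:**
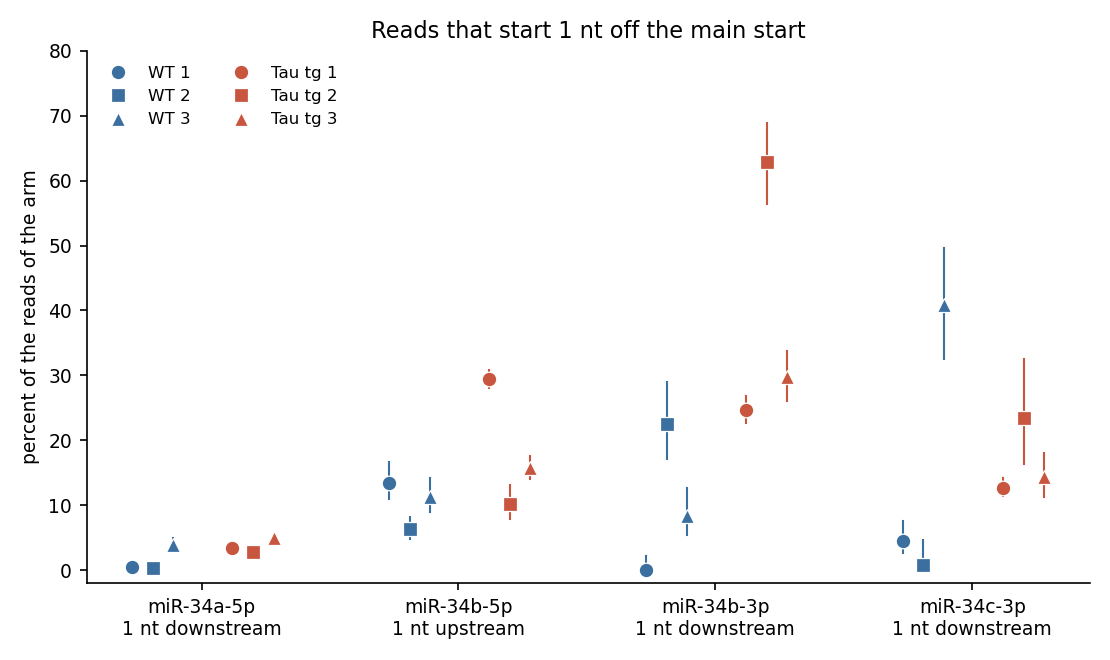
Percent of the reads of an arm that began 1 nt off its main start, with a point per sample and its 95% Wilson interval, for the 4 arms where such reads reached 4% in a sample. In miR-34b-3p the Tau tg samples, at 24.6% to 62.8%, stand above the WT samples, at 0% to 22.5%. In the other arms the groups overlap.

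In miR-34b-5p, reads that began 1 nt upstream made up 13.5%, 6.34% and 11.3% in WT and 29.4%, 10.2% and 15.8% in Tau tg. Their leading read was unevenly seen, at 15.0, 33.2 and 0 RPM in the WT libraries, against 105, 0 and 59.3 RPM in the Tau tg libraries. miR-34c-3p had shifted starts too, at 4.50%, 0.855% and 40.8% in WT and 12.7%, 23.5% and 14.3% in Tau tg, and its highest share was in WT 3, from 125 reads. In both of these arms the groups overlapped.

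The canonical 22 nt read of miR-34a-5p stood at 442, 670 and 1085 RPM in the WT libraries, against 371, 1188 and 841 RPM in the Tau tg libraries, and its log2 difference was 0.07 ± 0.48. The read 1 nt longer at the 3′ end stood at 281, 384 and 370 RPM in the WT libraries, against 245, 1118 and 547 RPM in the Tau tg libraries. Reads with added uridines, a 3′ tail that the hairpin does not encode, were a small part of miR-34a-5p. They made up 4.09%, 2.75% and 1.58% in WT and 4.63%, 4.70% and 4.88% in Tau tg, close between groups but without overlap, and were not tested. In miR-34c-5p the same tails made up 7.62%, 16.1% and 6.94% in WT and 2.18%, 0.629% and 7.71% in Tau tg, with the highest share in WT 2. In miR-34b-3p they made up 0%, 0.535% and 0.873% in WT and 11.9%, 12.8% and 2.95% in Tau tg, where the 0% allows up to 1.69%. In miR-34b-5p they made up 0%, 0% and 0% in WT and 1.98%, 0.189% and 1.96% in Tau tg. These 0% values came from 570, 804 and 558 reads. They allow up to 0.526%, 0.373% and 0.538%, above the 0.189% of Tau tg 2. Such tails were not counted over all miRNAs, so no background stands beside these values. The share of miR-34a-5p reads with the main seed was 99.5%, 99.6% and 95.8% in WT and 96.1%, 95.8% and 94.7% in Tau tg, a difference of -2.76 percentage points (exact permutation p = 0.300, adjusted 0.667). Its mean read length differed by 0.0583 nt (exact permutation p = 0.400, adjusted 0.667).

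miR-449a-5p had too few reads to describe its ends, with 1 to 180 reads in a library. Its canonical read stood at 0, 4.07 and 39.4 RPM in the WT libraries, against 19.1, 20.9 and 1.23 RPM in the Tau tg libraries. In WT 2 a 24 nt read with an untemplated AU tail held 21.0 RPM of its 25.8 RPM. In Tau tg 3, 47.2% of its reads matched the Mir449a hairpin only in part, and the most abundant of these carried the same seed. All sequences of this kind began with A in place of U and differed from the canonical read near the 3′ end too. They bore the name miR-449a-5p, and whether they came from another miR-449 hairpin was not tested. These values allow no statement on a group.

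The seed GGCAGU was carried by reads beyond the members. All reads with it added up to 1943, 2163 and 4277 RPM in the WT libraries, against 4456, 3484 and 3801 RPM in the Tau tg libraries, and the groups overlapped through WT 3. Sequences of the members held 1906, 2108 and 2660 RPM of this in WT and 4029, 3429 and 3752 RPM in Tau tg, without overlap. Over the 811 seeds summed in the same way over miRNA sequences and above 0 in all samples, 76 (9.37%) had groups that stayed apart, and 58 (7.15%) had every Tau tg sample above every WT sample, GGCAGU among them.

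The remaining 55 sequences had the seed but no miRNA name, and none of them was counted as a member. 31 of these were listed to a miR-34 or miR-449 hairpin and held 13.8 to 55.2 RPM. Another 17 shared a stretch of bases after the seed that is in none of the members. They held 1.87, 8.81 and 1603 RPM in the WT libraries, against 399, 0 and 0 RPM in the Tau tg libraries, nearly all of it in WT 3 and Tau tg 1. The members' share of all reads with the seed was thus 62.2% in WT 3 and 90.4% in Tau tg 1, but 97.5% to 98.7% in the other samples. Its group difference was 9.91 percentage points (exact permutation p = 0.500, adjusted 0.667).

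**Figure D5:**
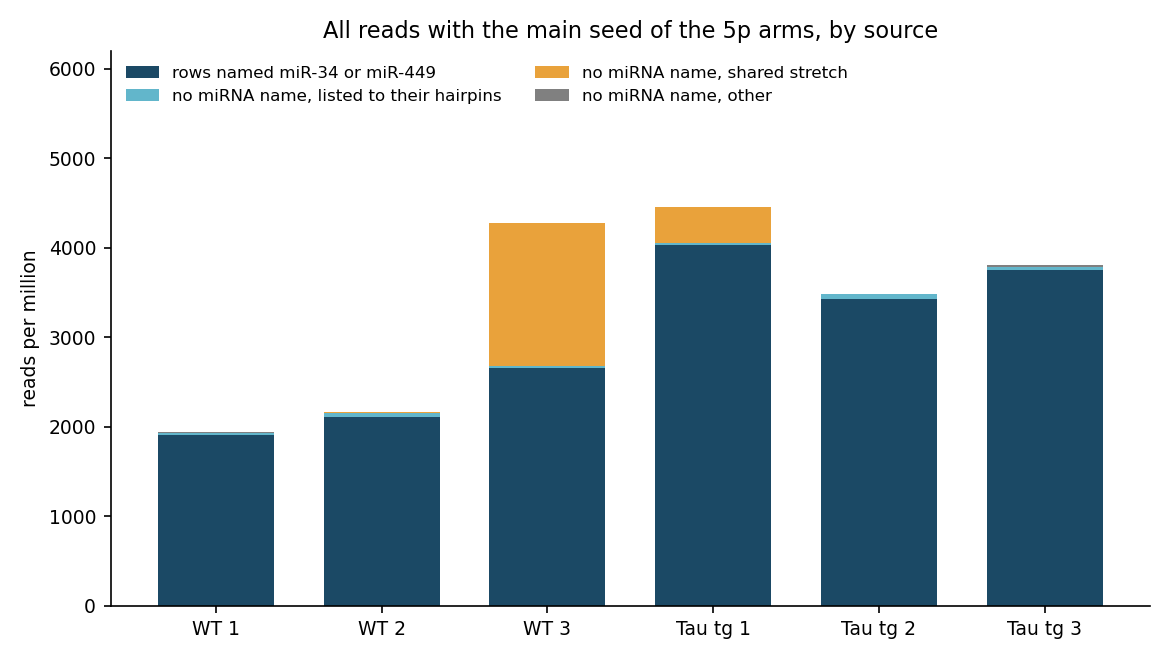
Stacked bars of RPM of all reads with the seed GGCAGU in each sample, split by what the table lists them to. The members' part separates WT, at 1906 to 2660 RPM, from Tau tg, at 3429 to 4029 RPM, and the sequences with the shared stretch add 1603 RPM to WT 3 and 399 RPM to Tau tg 1.

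In the fit over all 3987 seeds, 172 (4.31%) had an unadjusted p under 0.05 and 5 (0.125%) an adjusted p under 0.05. The log2 difference of GGCAGU was 0.57 with all reads (limma unadjusted p = 0.105, adjusted p = 0.991). It was 0.76 with the members' reads alone (limma unadjusted p = 0.0300, adjusted p = 0.992). With the sequences without a miRNA name alone it was -0.49 (limma unadjusted p = 0.431, adjusted p = 0.991). The members' reads were set apart with earlier results known, so their unadjusted p is not an independent test. The value of the sequences without a miRNA name gives no direction, since they held 36.1, 54.9 and 1616 RPM in the WT libraries, against 427, 55.2 and 49.1 RPM in the Tau tg libraries, and the WT mean was set by WT 3.

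miR-34c-5p was most like miR-34c-3p, the other arm of its hairpin, with a Pearson r of 0.957 over the 6 samples on log2(RPM + 1), among 475 miRNAs with a mean of at least 10 RPM. Next came miR-30c-5p, miR-30b-5p, miR-29a-5p and miR-1843b-5p, with r from 0.925 to 0.948. Its r with miR-34b-5p, its cluster partner, was 0.44 and with miR-34a-5p it was -0.56. miR-34a-5p was most like miR-673-3p (0.942), miR-221-3p (0.931), miR-340-5p (0.923), miR-106b-5p (0.848) and miR-320-3p (0.838), with no member among them. The r of miR-673-3p rested on Tau tg 2 and Tau tg 3, at 46.8 and 15.1 RPM. This miRNA stood at 0 to 1.83 RPM elsewhere. These r describe 6 libraries that also differ in depth, and the highest of many r is high by selection.

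Of the 5 relatives outside the 6 names, only miR-34a-3p, the passenger of miR-34a-5p, was detected, with the seed AUCAGC (viability 23.1%, slightly below that of GGCAGU), at 10.8, 112 and 19.3 RPM in the WT libraries, against 30.4, 20.9 and 39.3 RPM in the Tau tg libraries. miR-449a-3p, miR-449b and both miR-449c arms had no read under their names. Reads listed to a miR-34 or miR-449 hairpin without a miRNA name were not assigned to an arm. No other miRNA had GGCAGU as its main seed. Of 11 miRNAs that p53 is known to raise or to help mature, 0 were higher and 1 was lower in Tau tg at an unadjusted p under 0.05, with a median log2 difference of 0.09. That one was miR-200c-3p, at 779, 516 and 1031 RPM in the WT libraries, against 282, 570 and 173 RPM in the Tau tg libraries (limma log2 difference -1.30, adjusted p = 0.896). The median of the list lay below that of all miRNAs, 0.25, and the median of the members, 0.67, above it. The part of p53 in the members' levels was not tested.

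Markers of other cells were set beside the members. The 3 detected miRNAs of the choroid plexus and ciliated epithelium list of 5 were miR-204-5p, miR-204-3p and miR-211-5p. They added up to 1881, 1898 and 4876 RPM in the WT libraries, against 8340, 2068 and 3804 RPM in the Tau tg libraries. Their sum was highest in Tau tg 1, as was miR-34c-5p. It was next highest in WT 3, where miR-34c-5p stood at 608 RPM, against 1543 RPM in Tau tg 3. 1 of these 3 miRNAs, miR-204-3p, had an unadjusted p under 0.05 and was higher in Tau tg. It stood at 92.3, 4.75 and 49.5 RPM in the WT libraries, against 229, 110 and 105 RPM in the Tau tg libraries (limma log2 difference 2.21, adjusted p = 0.896). miR-449b and miR-449c-5p, also on this list, had no read under their names. Summed, the list of 8 miRNAs of other epithelium, pituitary and sensory cells went the opposite way to the sum of the members. It stood at 2267 to 8058 RPM in the WT libraries, against 1816 to 1916 RPM in the Tau tg libraries. In this list 5 miRNAs were lower at an unadjusted p under 0.05. These were miR-200a-3p, miR-200b-3p, miR-429-3p, miR-96-5p and miR-182-5p, with log2 differences from -3.09 to -1.21 and limma adjusted p from 0.188 to 0.896. All of them but miR-200a-3p were among the 5 miRNAs that DESeq2 called (adjusted p from 8.71e-04 to 0.0261). The rest of the list was mixed. miR-375-3p was higher in Tau tg, at 41.2, 53.5 and 59.6 RPM in WT, against 61.3, 76.1 and 89.2 RPM in Tau tg. Its limma log2 difference was 0.54 (adjusted p = 0.896). miR-7a-5p had a log2 difference of -0.10 and miR-183-5p one of -1.19, both with overlapping groups. None of the 6 neuronal, 2 oligodendrocyte, 6 microglia and leukocyte or 2 vessel miRNAs had an unadjusted p under 0.05. The summed level of the neuronal list was 156997 to 165592 RPM in the WT libraries, against 156191 to 173024 RPM in the Tau tg libraries. Its terms moved differently, and 5 of its 6 log2 differences were positive. miR-9-5p stood at 37677, 29427 and 29628 RPM in WT, against 44564, 48005 and 46351 RPM in Tau tg. Its limma log2 difference was 0.53 (adjusted p = 0.896). miR-124-3p was lower in Tau tg, with a mean of 60257 RPM against 77313 RPM in WT and overlapping groups (log2 difference -0.36, adjusted p = 0.896). The part of these cells in the members' levels was not tested.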

How the data were processed

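RISC-bound small RNA was measured in 3 WT and 3 Tau tg brain samples. The authors trimmed the reads (Trim Galore per the labels), processed them with their SPOROS pipeline and deposited RPM per unique sequence. The deposited table also holds a viability score for each 6mer seed (bases 2 to 7) and the miRNA name; further tools and the build are not given in the sources used here. Within a tolerance of 0.05 reads, 100% of the RPM values were whole multiples of what 1 read is worth, which gave the reads per sample; rows summed to 915719 to 978886 RPM. 1 further column of pooled values was not used. A count of 0 allows up to 3 reads, or 0.427 to 2.75 RPM, and Wilson intervals and such limits cover counting error only.

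RPM were summed per miRNA and per seed, and log2(RPM + 1) was fitted with limma 3.58.1 (trend), for features with a mean of at least 1 RPM and with Benjamini-Hochberg adjustment over the whole table. edgeR 4.0.16 and DESeq2 1.42.0 were alternatives on the recovered reads. Single measures were tested by exact two-sided permutation. Same-group libraries were not duplicates (chi-square per degree of freedom 140 to 316). Reads were placed on the RefSeq hairpins by exact match from the first base, allowing a tail of up to 3 bases. The named items were the 6 members, up to 3 sequences of each by mean level, their relatives, the most alike miRNAs, and of the marker and p53 lists those with p under 0.05. The members, lists and tests were chosen with earlier results of these data known.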

Additional observations from a re-analysis of the deposited data

How the results depend on the processing

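The log2 differences of miR-34a-5p, miR-34b-5p, miR-34c-5p, miR-34b-3p and miR-34c-3p kept their sign in the 19 alternatives run for each, and none passed an adjusted p of 0.05. Without each replicate in turn, miR-34a-5p ran from 0.03 to 0.86, miR-34b-5p from 0.15 to 0.68, miR-34c-5p from 0.23 to 1.90, miR-34b-3p from 0.39 to 1.05 and miR-34c-3p from 0.14 to 1.11. With the main seed only, miR-34b-3p was 0.09. miR-449a-5p reversed with edgeR (-0.37), DESeq2 (-0.41) and without WT 1 (-0.70, with up to 1.76 without another replicate). Under median-of-ratios scaling the most abundant reads of miR-34a-5p and miR-34b-5p reversed to -0.08 and -0.04, and without each replicate in turn they ran from -0.29 to 0.54 and from -0.19 to 0.40. That of miR-449a-5p was -0.05 with edgeR and ran from -0.53 to 2.14. The seed GGCAGU was -0.49 in the sequences without a miRNA name. The log2 ratio of miR-34c-5p to miR-34a-5p ran from -0.63 (without Tau tg 1) to 1.87, and the members' share of reads with the seed from -1.95 (without WT 3) to 16.0. The cause of these changes was not tested. Median-of-ratios scaling and quantile normalization moved the median of all miRNAs from 0.25 to 0.09 and 0.06.

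The count of miRNAs with an unadjusted p under 0.05 was 25 and ran from 17 to 49 without each replicate in turn, and that with an adjusted p was 0, with 5 by DESeq2 and 0 to 1 without a replicate. For sequences the unadjusted count was 803, with 2564 by edgeR and 501 to 927 without a replicate. Their adjusted count was 10, with 16 at a pseudocount of 0.1, 49 by edgeR and 0 to 17 without a replicate. For seeds the unadjusted count of 172 ran from 105 to 232 without a replicate, and the adjusted count was 5, with 3 at a pseudocount of 0.1, 3 under median-of-ratios scaling, 2 by edgeR and 0 to 6 without a replicate.

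Same-numbered WT and Tau tg samples deviated together with r of -0.00, -0.07 and 0.04, so no pairing by replicate number was seen. Such r cannot exclude a pairing or a shared batch. With the replicate number as a block, 22 sequences had an adjusted p under 0.05 in place of 10, among them the shifted miR-34b-3p read (3.88, adjusted p = 0.0376).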
